A study of Mus musculus with 2 samples.

Results

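The 10 Kruppel-like factor genes Klf2, Klf3, Klf4, Klf5, Klf6, Klf7, Klf9, Klf10, Klf13 and Klf15 were followed in ATAC-seq peak lists of mouse intestinal enteroids with and without Taf4. They are 10 of 22380 protein-coding genes of the mm9 annotation used. A peak within 1 kb of any annotated start site of a gene was counted as a start site peak. Other peaks within 200 kb of the gene, and nearer to it than to any other coding start site, were counted as distal. By this rule the genes held 12 start site and 122 distal peaks of the 90445 peaks in control enteroids, and 11 and 107 of 71282 peaks after Taf4 inactivation.

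Enteroids are epithelial cultures, grown here from crypts of the ileum of C57Bl6/129sv mice, 4 months of age. Control enteroids, labelled WT, were Taf4lox/lox, so their Taf4 gene carried the floxed alleles and no Cre. Taf4-inactivated enteroids, labelled KO, were Taf4lox/lox::VilCreERT2, in which the villin promoter drives an inducible Cre recombinase in epithelial cells. Both were exposed to 1 µM 4-hydroxytamoxifen (4-OHT) for 3 days, and 1 library was made for each genotype. The comparison asks where open chromatin differs early after loss of Taf4, which encodes a subunit of TFIID, a factor that assembles at core promoters. With 1 library a side there is no replicate, every difference describes these libraries alone, and no p-value is given. Differences of genotype cannot be told apart from differences between the cultures or libraries.

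Kruppel-like factors bind CACCC boxes and related GC-rich sequences through zinc fingers at the end of the protein, and act as activators or repressors. In the intestine Klf5 is known for proliferating crypt cells, and Klf4 for differentiated villus cells and the maturation of goblet cells. Accessible regions far from a start site often hold enhancers, where factors such as AP-1, GATA, HNF4 and CDX proteins bind.

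The background under the peaks was estimated at 12.1 reads in control and 7.35 after inactivation, a ratio of 1.65. It was taken as a measure of depth, and read counts were not analysed. Strength was therefore compared by rank, as the percentile of a peak's fold enrichment over its own background within its own list. Of the 9 epithelial marker genes searched, 8 had a start site peak in control and 9 after inactivation, with Krt20 the exception in control. The leukocyte markers Ptprc, Cd3e and Cd79a had none in either list, whereas Itgam had 1 in both. Of 3 endothelial genes, 2 and 1 had a start site peak, and of 5 genes of mesenchyme and muscle, 5 and 5. A start site peak does not require that the gene is transcribed, so these counts do not measure a share of other cells. In both lists the targeted gene, annotated as Taf4a, had a peak at its start, which does not report on the floxed exons. The part of other cells in the values was not tested.

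Start sites of the Kruppel-like factor genes were open in both genotypes, with Klf15 as the exception. All 10 genes had a start site peak in control enteroids, as had 68.4% of all coding genes. After inactivation 9 of the 10 had such a peak (65.5% of all genes), and the same 9 had it in both lists (62.7%). The strongest were those of Klf5, Klf7, Klf3 and Klf6, all above percentile 90 in both lists. In the plot of start site ranks these lie to the right, and Klf4 and Klf15 to the left.

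**Figure D1:**
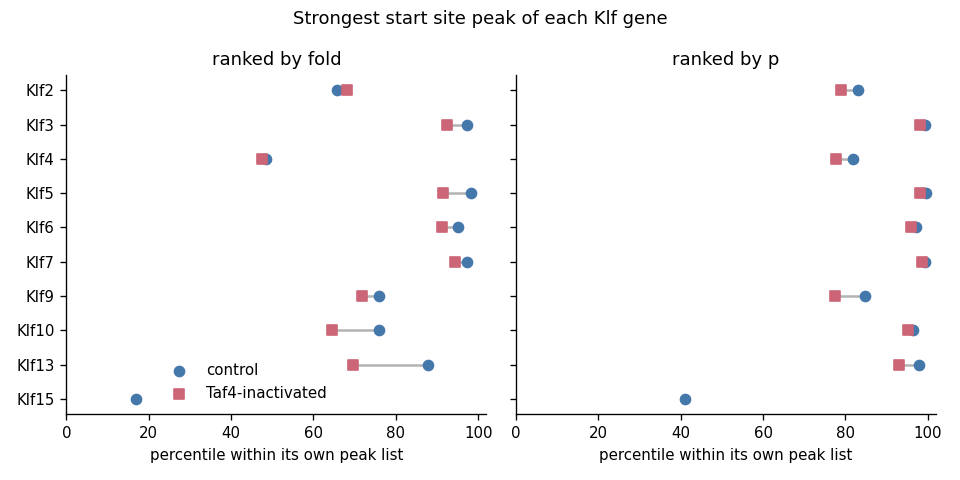
Percentile of the strongest start site peak of each Klf gene within its own peak list (x axis, percentile), ranked by fold enrichment (left) and by p (right). Circles are the control and squares the Taf4-inactivated library (1 each), and Klf15 has a control peak only, at percentile 16.8 by fold.

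For Klf5, the factor of crypt proliferation, the start site peak (chr14:99697506-99698690 in control) had a fold enrichment of 3.3 at percentile 98.2 in control and 3.8 at percentile 91.4 after inactivation. For Klf4, the factor of differentiated cells, it was 2.02 at percentile 48.6 and 2.42 at percentile 47.5. The Klf4 peak was broad, 3454 bp in control and 3221 bp after inactivation, and reached from upstream of the start into the gene, which lies on the minus strand (chr4:55540013-55545347). Ranked by p, which also reflects the height and local background, it stood at percentiles 81.9 and 77.7. The Klf5 peak was narrower, 1185 and 1044 bp, and stood at 99.5 and 98.2 by p. The fold of a wider peak is an average over more bases. The genes of these opposed factors thus had start site peaks that differed in rank by fold, and less by p, in both libraries. Neither moved by as much as 25 points.

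Klf3, which encodes a repressor that recruits CtBP proteins, had peaks at its annotated upstream start and at an inner start. The upstream peak was at percentile 97.2 in control and 92.5 after inactivation, and the inner peak at 66.7 and 59.1. Klf7, a factor known from neurons, stood at percentiles 97.2 and 94.4. Klf6, a widely expressed factor, stood at 95 and 91.3. Klf10, an early response gene of TGF-beta signalling, had a broad peak of 3498 and 3533 bp at percentiles 75.9 and 64.6. Klf9, a target of glucocorticoid and thyroid hormone receptors, stood at 75.9 and 71.9. Klf2, known for quiescence of T cells and endothelium, was the only gene whose start site peak ranked higher after inactivation, at 65.7 and 68.1, and by p it ranked lower (83.1 and 79).

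Klf13, a close relative of Klf9, had peaks at an outer and an inner start site. The inner peak (chr7:71069527-71070903 in control) fell from percentile 76.5 to 49.4, a difference of -27.1 points by fold and -25.3 by p. The outer peak stood at 87.9 and 69.7, a difference of -18.2 points by fold and -4.87 by p. The inner peak was thus the only Klf start site peak past 25 points. Over the 11 start site peaks found in both lists, 10 ranked lower and 1 higher after inactivation, with a median difference of -4.68 points and a range from -27.1 to 2.4. Over all 14050 such pairs of coding genes the median was -2.88, with 9093 lower and 4957 higher. A fall of at least 25 points was seen in 1 of the 11 Klf pairs and in 10% of all pairs, and a rise of that size in 0 of 11 and 6.93% of all.

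Klf15, a regulator of amino acid and glucose metabolism, was the only gene with a start site peak in control alone, a pattern of 5.7% of all coding genes. Its control peak (chr6:90412563-90413295) was weak, with a fold enrichment of 1.87 at percentile 16.8 and a −log10 q of 1.81. The nearest peak of the Taf4-inactivated list lay 4490 bp away. The Klf15 peak is lost from the control list too at a −log10 q of at least 2, so the difference between the lists depends on the threshold. The cause of its absence after inactivation was not tested.

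Promoter sequences of 8 of the 10 genes, all but Klf5 and Klf10, were taken from RefSeq (GRCm38.p6, 250 bases before to 50 after a start site). The letters GGGCGG of the GC box were present on either strand in 7 of 8, all but Klf9, and in 35.7% of all 32851 promoters. The CACCC box, searched as CCNCACCC, was present in the promoters of Klf3, Klf7 and Klf15, that is 3 of 8, and in 16.6% of all. The AP-1 letters TGANTCA were present in that of Klf9 alone (7.81% of all). The GATA letters AGATAA, the HNF4 letters CAAAGNCCA and the CDX letters CCATAAA were present in 0 of 8, against 11.2%, 1.98% and 2.75% of all. Their GC content ran from 58.3% in Klf7 to 76.7% in Klf3, above the median of 52.7% over all promoters, and they held 16 to 47 CpG pairs, against a median of 7. Such letters describe the sequence and do not show that a factor was bound.

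The 250 bases before the start sites of Klf4 and Klf15 are shown as the genes with the lowest-ranked start site peaks. Both were placed on mm9 by exact match, at chr4:55545348-55545597 on the minus strand and chr6:90412320-90412569 on the plus strand, and are printed 5′ to 3′ on the strand of the gene. Capitals mark the searched letters, and matches may overlap. Klf4 holds 4 GC box matches and no CACCC box, and Klf15 1 of each.
Klf4 upstream: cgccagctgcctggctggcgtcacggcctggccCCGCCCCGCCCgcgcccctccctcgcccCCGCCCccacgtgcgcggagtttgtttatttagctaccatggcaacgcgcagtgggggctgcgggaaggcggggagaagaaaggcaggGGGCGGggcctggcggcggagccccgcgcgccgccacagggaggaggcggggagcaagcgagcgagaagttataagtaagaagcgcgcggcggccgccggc
Klf15 upstream: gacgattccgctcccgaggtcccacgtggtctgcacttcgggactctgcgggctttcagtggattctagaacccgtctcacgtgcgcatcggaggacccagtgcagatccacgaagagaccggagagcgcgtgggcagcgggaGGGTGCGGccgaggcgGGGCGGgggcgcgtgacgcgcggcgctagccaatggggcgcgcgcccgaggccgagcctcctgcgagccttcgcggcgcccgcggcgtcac

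Distal peaks were spread unevenly over the genes. Klf13 had the most, 28 in control and 19 after inactivation, followed by Klf4 (24 and 18) and Klf3 (16 and 16). Klf2 had 5 and 2, and Klf15 5 and 3, in the shortest stretches nearer to them than to another gene (45.9 and 26.2 kb, against 137 to 407 kb for the others). The number of distal peaks was lower after inactivation for Klf2, Klf4, Klf9, Klf13 and Klf15, as the bars of distal peak numbers show. It was higher for Klf5, Klf6, Klf7 and Klf10. All coding genes together had 68907 distal peaks in control and 52599 after inactivation. Klf9 changed from 12 to 6, Klf5 from 7 to 11, Klf6 from 5 to 8, Klf7 from 10 to 13 and Klf10 from 10 to 11.

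**Figure D2:**
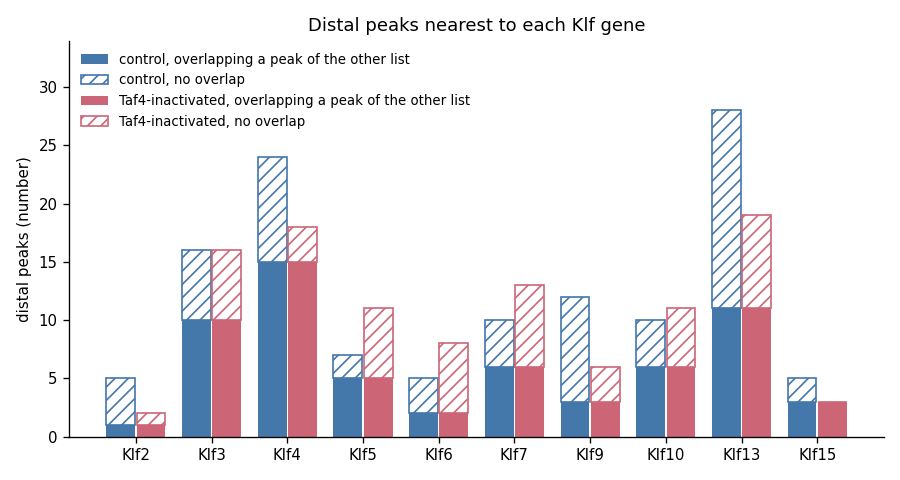
Number of distal peaks (y axis) of each Klf gene in the control (blue) and Taf4-inactivated (red) library. Filled parts overlap a peak of the other list and hatched parts do not. Klf13 has 28 and 19, and Klf5 and Klf6 are among the genes with more peaks after inactivation.

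The direction of these numbers depended on the peak threshold for 5 genes, Klf2, Klf3, Klf4, Klf13 and Klf15. At a −log10 q of at least 2, Klf3 had 12 control and 15 inactivated peaks, Klf4 13 and 15, Klf13 9 and 10, and Klf2 0 and 1. Klf5 (4 and 11), Klf6 (3 and 7), Klf7 (4 and 11) and Klf10 (6 and 10) kept more peaks after inactivation, and Klf9 (4 and 2) and Klf15 (2 and 1) fewer. Over the 10 genes there were 57 and 83 peaks at that threshold, and 13 and 37 at 5 or more. All coding genes moved in the same direction, with 29073 and 30610 peaks at 2 and 3472 and 10367 at 5. At 2 their difference was smaller in proportion than that of the Klf genes. At 5 or more, Klf3 had 5 and 10, Klf4 2 and 7, Klf6 0 and 5, Klf7 1 and 5, Klf5 1 and 3, Klf10 1 and 3, Klf13 3 and 3, and Klf15 0 and 1, the reverse of its order at lower thresholds. Klf2 and Klf9 had 0 in both lists.

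In control enteroids 60 of 122 distal Klf peaks (49.2%, exact 95% interval 40 to 58.4) overlapped no peak of the other list, below the 60.4% of all distal peaks. After inactivation it was 45 of 107 (42.1%, 32.6 to 52), against 47.8%. Intervals cover counting error only, and peaks of 1 gene are not replicates. The other 62 distal peaks of each list had a partner. Most distal peaks were intergenic, 84 in control and 83 after inactivation, while 18 and 17 lay in introns. Peaks over exons, coding or not, numbered 20 in control and 7 after inactivation. The matching shares over all distal peaks were not computed for these positions. Klf peaks were narrower after inactivation, with a median width of 489 against 602 bp, and covered 63 against 87.2 kb. All distal peaks differed in the same direction, with medians of 447 against 512 bp and 30400 against 45000 kb covered.

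The limits of the rule cut through the peaks around Klf4. The distal peak nearest to the 1 kb limit was an exonic control peak of Klf15, 1629 bp from a start site at percentile 0.96, while all start site peaks overlapped a start site. The control peak just inside 200 kb lay 190118 bp upstream of Klf4 at percentile 28.2, and that just outside at 200452 bp and percentile 42.4. After inactivation a Klf4 peak at 194767 bp and percentile 67.7 lay inside, and a peak at 200879 bp and percentile 91.3 outside. Both outside peaks cover the same region (chr4:55745799-55746463 in control and chr4:55746226-55746495 after inactivation).

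**Figure D3:**
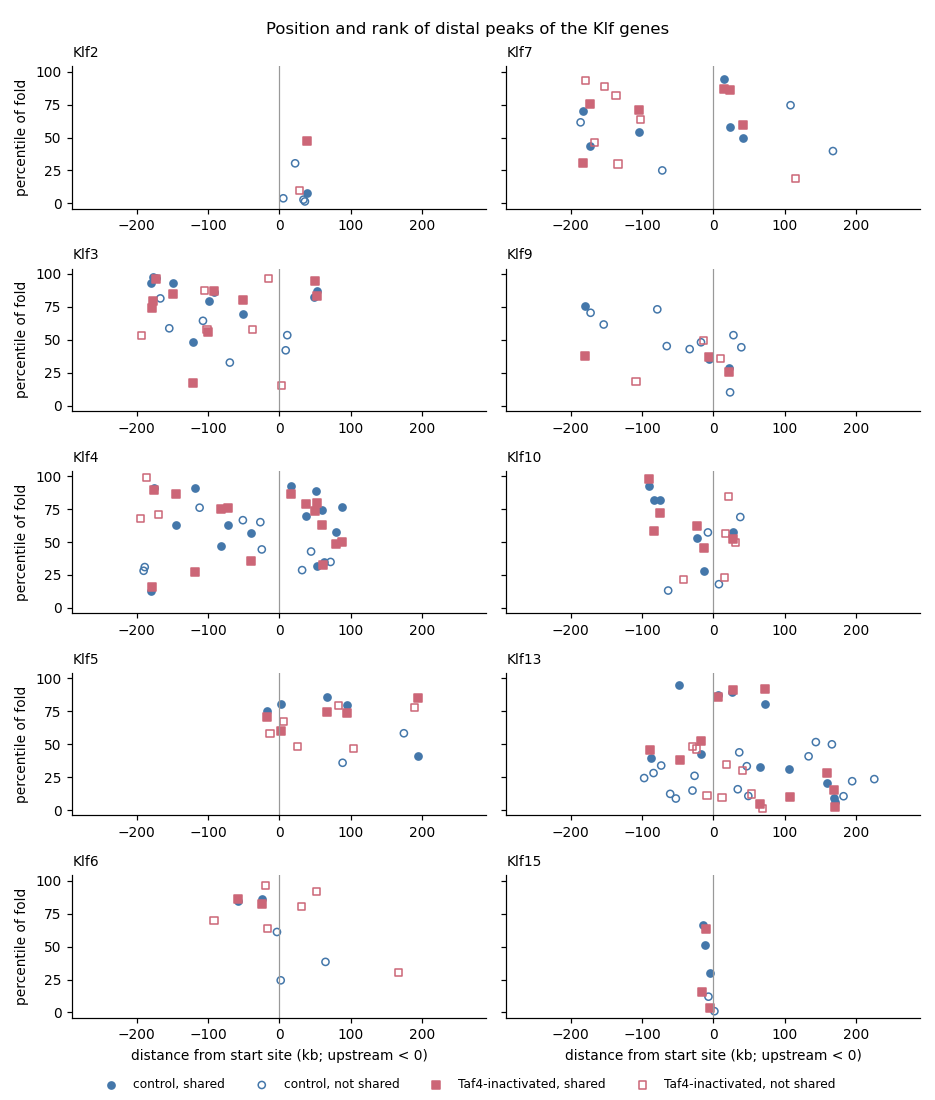
Distal peaks of each Klf gene by distance from the nearest start site of that gene (x axis, kb, upstream negative) and percentile of fold within their own list (y axis). Circles are control and squares Taf4-inactivated peaks (1 library each), filled where a peak overlaps the other list. The open square at the top left of Klf4 is its peak at percentile 99.1, and Klf6 has open squares at 96.1 and 91.9.

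Distal peaks of high rank by fold were found in the Taf4-inactivated list without a control counterpart near Klf4, Klf3, Klf6 and Klf7. Of the 122 control distal peaks, 10 (8.2%) were in the top 10% of their list by fold, against 4.52% of all distal peaks, and 0 of these 10 lacked a partner (5.71% of all such distal peaks). After inactivation 10 of 107 (9.35%) were in the top 10%, against 5.34% of all, and 5 of these 10 lacked a partner, against 12.6% of all. All 5 were intergenic. Ranked by p they stood at percentiles 96.3 (Klf4), 91.1 (Klf3), 90.2 and 84.6 (Klf6, upstream and downstream) and 91.8 (Klf7). They were not evenly placed, as Klf6 held 2 and Klf2, Klf5, Klf9, Klf10, Klf13 and Klf15 none.

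The strongest of the 5 lay 186059 bp upstream of Klf4 (chr4:55731406-55731738), with a fold enrichment of 5.1 at percentile 99.1, and the nearest control peak was 2146 bp away. The second lay 14782 bp upstream of Klf3 (chr5:65179457-65179846), at 4.4 and percentile 96.7, with 14018 bp to the nearest control peak. Klf6 was flanked on both sides. A peak 19720 bp upstream (chr13:5840701-5841015) stood at 4.3 and percentile 96.1, and a peak 51688 bp downstream of the start (chr13:5912423-5912764) at 3.83 and percentile 91.9. Control peaks were 3766 and 12769 bp from them. The last lay 178872 bp upstream of Klf7 (chr1:64347728-64348200), at 3.96 and percentile 93.2, with a control peak at 2631 bp.

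The central 300 bases of these peaks are shown because no other distal Klf peaks combined a top rank with the absence of a partner. They are on the plus strand of mm9, 5′ to 3′, and capitals mark the letters of the 6 motifs on either strand. AP-1 letters were present in 4 of the 5, with G or C in the middle near Klf4 and Klf7 and with A or T near Klf3 and the downstream Klf6 peak. The Klf7 window also held HNF4 letters at 2 places. The upstream Klf6 window held none of the 6.
Klf4 chr4:55731423-55731722: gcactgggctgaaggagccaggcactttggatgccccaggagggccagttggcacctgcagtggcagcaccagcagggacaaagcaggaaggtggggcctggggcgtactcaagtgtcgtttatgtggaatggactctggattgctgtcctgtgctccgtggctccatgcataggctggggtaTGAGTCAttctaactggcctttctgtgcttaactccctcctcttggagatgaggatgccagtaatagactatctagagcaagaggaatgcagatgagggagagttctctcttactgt
Klf3 chr5:65179502-65179801: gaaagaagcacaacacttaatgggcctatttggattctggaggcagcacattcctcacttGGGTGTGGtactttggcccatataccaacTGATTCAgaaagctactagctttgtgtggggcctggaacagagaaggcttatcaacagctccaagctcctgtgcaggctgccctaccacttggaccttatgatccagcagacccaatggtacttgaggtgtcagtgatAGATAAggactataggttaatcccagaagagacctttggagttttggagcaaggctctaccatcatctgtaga
Klf6 upstream chr13:5840709-5841008: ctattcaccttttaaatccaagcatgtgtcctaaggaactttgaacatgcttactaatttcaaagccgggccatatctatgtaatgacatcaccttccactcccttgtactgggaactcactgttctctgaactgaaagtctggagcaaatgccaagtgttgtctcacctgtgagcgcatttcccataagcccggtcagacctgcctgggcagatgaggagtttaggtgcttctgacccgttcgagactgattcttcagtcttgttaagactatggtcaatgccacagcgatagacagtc
Klf6 downstream chr13:5912444-5912743: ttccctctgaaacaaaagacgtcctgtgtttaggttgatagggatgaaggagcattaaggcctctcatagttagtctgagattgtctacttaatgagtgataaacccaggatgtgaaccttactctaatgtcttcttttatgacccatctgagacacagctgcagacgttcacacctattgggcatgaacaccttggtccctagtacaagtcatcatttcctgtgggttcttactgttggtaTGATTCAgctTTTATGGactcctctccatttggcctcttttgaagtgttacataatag
Klf7 chr1:64347815-64348114: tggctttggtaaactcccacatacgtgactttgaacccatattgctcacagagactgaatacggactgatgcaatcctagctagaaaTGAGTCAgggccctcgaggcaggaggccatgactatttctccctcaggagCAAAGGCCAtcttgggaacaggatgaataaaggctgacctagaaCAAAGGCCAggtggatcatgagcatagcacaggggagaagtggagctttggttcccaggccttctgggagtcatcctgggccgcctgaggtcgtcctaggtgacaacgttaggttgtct

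AP-1 letters were more frequent in distal Klf peaks after inactivation than in distal peaks at large. In the central 300 bases TGANTCA was present in 31 of 107 Taf4-inactivated Klf peaks (29%), against 14.1% of all 52599 distal peaks of that list. In control it was present in 11 of 122 (9.02%), against 10.5% of all 68907. Among Klf peaks without a partner it was 17 of 45 (37.8%) after inactivation and 3 of 60 (5%) in control, against 14.1% and 8.62% of all distal peaks without a partner. Among those with a partner it was 14 of 62 (22.6%) and 8 of 62 (12.9%), against 14.1% and 13.3%. No test was made, because the peaks share 1 library and 10 loci.

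**Figure D4:**
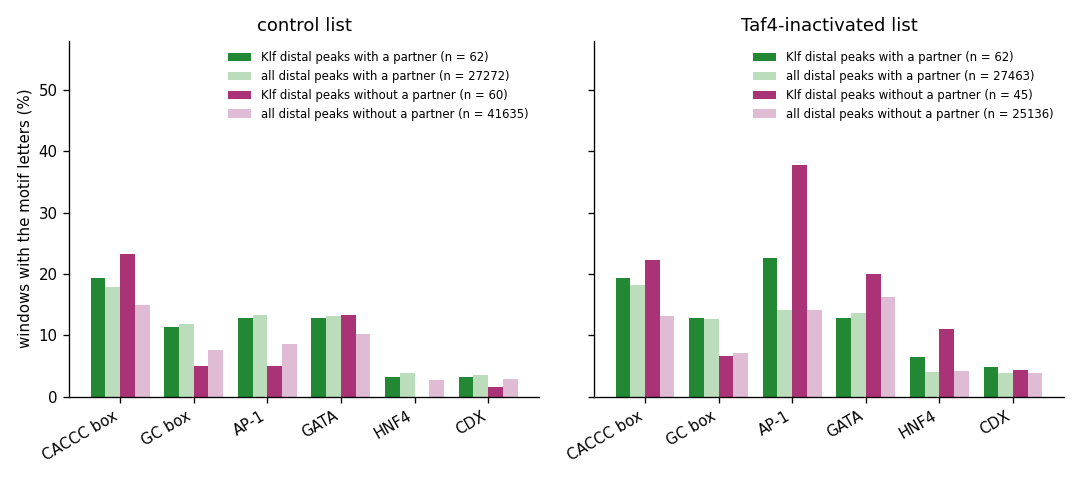
Share of distal peaks whose central 300 bases hold the letters of each motif (y axis, percent), in the control list (left) and the Taf4-inactivated list (right). Green bars are peaks with and purple bars peaks without a partner in the other list, dark for Klf genes and pale for all coding genes. The dark purple AP-1 bar stands at 37.8% on the right and 5% on the left.

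The width of the peaks bears on this comparison, since a fixed window covers less of a wide control peak. AP-1 letters were therefore counted also over whole peaks, a choice made after seeing the data. The control Klf peaks then stood above distal peaks at large, with letters in 31 of 122 (25.4%, against 19.6% of all), in place of below as in the central windows. After inactivation they were present in 43 of 107 (40.2%, against 23%). Klf peaks with a partner gave like values in the libraries, with letters in 25 of 62 in control (40.3%, against 26.8% of all with a partner) and 23 of 62 after inactivation (37.1%, against 25.8%). They held 5.95 and 6.2 matches per 10 kb, against 4.27 and 4.81 over all. Klf peaks without a partner differed, with letters in 6 of 60 in control (10%, against 15%) and 20 of 45 after inactivation (44.4%, against 19.9%). They held 2.18 and 11.8 matches per 10 kb, against 3.05 and 5.03 over all.

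AP-1 letters occurred near most of the genes after inactivation. They were present in 6 of 8 distal peaks of Klf6, 6 of 18 of Klf4, 5 of 19 of Klf13, 2 of 6 of Klf9, and 3 each of Klf3 (of 16), Klf5 (of 11), Klf7 (of 13) and Klf10 (of 11). Klf2 and Klf15, with 2 and 3 peaks, had none. Without a partner they were present in 3 of 3 peaks of Klf4, 4 of 6 of Klf6, and 3 of 6 each of Klf3 and Klf5, but in 1 of 8 of Klf13 and 0 of 5 of Klf10. In control the counts were 0 of 16 for Klf3, 0 of 7 for Klf5, 1 of 24 for Klf4, 2 of 5 for Klf6, 1 of 10 for Klf7 and 2 of 28 for Klf13. For Klf10 (3 of 10) and Klf9 (2 of 12) the control counts equalled those after inactivation, and Klf2 (of 5) and Klf15 (of 5) had none. Letters outside the window, as in peaks of Klf3 and Klf4 in both lists and of Klf5 in control, were not counted. The contrast between the lists by gene thus depends on the window, and whole peaks were not counted by gene.

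The letters with G or C in the middle, which are those of the AP-1 consensus, were present in 22 of 107 inactivated Klf windows (20.6%), against 11.1% of all. With A or T they were present in 9 of 107 (8.41%, against 3.6%). Above percentile 50 of fold, AP-1 letters were present in 23 of 64 inactivated Klf windows (35.9%, against 19.4% of all) and 7 of 60 control windows (11.7%, against 12.3%). Both splits were added with the values already known.

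CACCC boxes, the letters that Kruppel-like factors themselves recognise, were present in 26 of 122 control (21.3%) and 22 of 107 inactivated windows (20.6%), against 16.1% and 15.8% of all distal peaks. Klf13 held 10 of the 26 in control and 3 of the 22 after inactivation. HNF4 letters were present in 2 of 122 and 9 of 107 Klf windows (1.64% and 8.41%, against 3.19% and 4.11%), and 4 of the 9 belonged to Klf3. GATA letters were present in 13.1% and 15.9% (11.4% and 14.9% of all), GC boxes in 8.2% and 10.3% (9.31% and 10%) and CDX letters in 2.46% and 4.67% (3.18% and 3.87%). The GC content of the windows was close to that of all distal peaks, with medians of 51.7% against 52.3% in control and 50.7% against 51% after inactivation.

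Peaks found in both lists kept their order only in part. Over the 62 pairs of distal Klf peaks the median rank difference, Taf4-inactivated minus control, was -2.53 points, with 27 higher and 35 lower after inactivation and a range from -64.2 to 48. The median over all 26823 distal pairs was -2.81, with 11617 higher and 15206 lower. At least 25 points higher were 6 of the 62, against 12.4% of all pairs, and at least 25 points lower 9 of the 62, against 19%. Of these, 5 of the 6 and 8 of the 9 passed 25 points by p too, and 4 of the 6 and 4 of the 9 overlapped over 50% of both peaks.

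The pair with the largest rise lay 53142 bp downstream of the Klf4 start (chr4:55490607-55491500 in control). It stood at percentile 31.6 in control and 79.6 after inactivation, a difference of 48 points (35.9 by p). A second Klf4 pair, upstream in an intron of the non-coding Gm12506, rose from 47.2 to 75.4. Downstream of Klf5 a pair at 194312 bp (chr14:99892222-99892634 in control) rose from 41.5 to 85.2, a difference of 43.7 (53.8 by p), and was the strongest distal peak of Klf5 after inactivation. Its peaks shared 280 bp. Klf7 had a pair 172860 bp upstream that rose from 43.6 to 75.7 and a pair in its own intron that rose from 57.9 to 85.9. The only pair of Klf2, over an exon of Eps15l1, rose from 8.03 to 47.6.

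**Figure D5:**
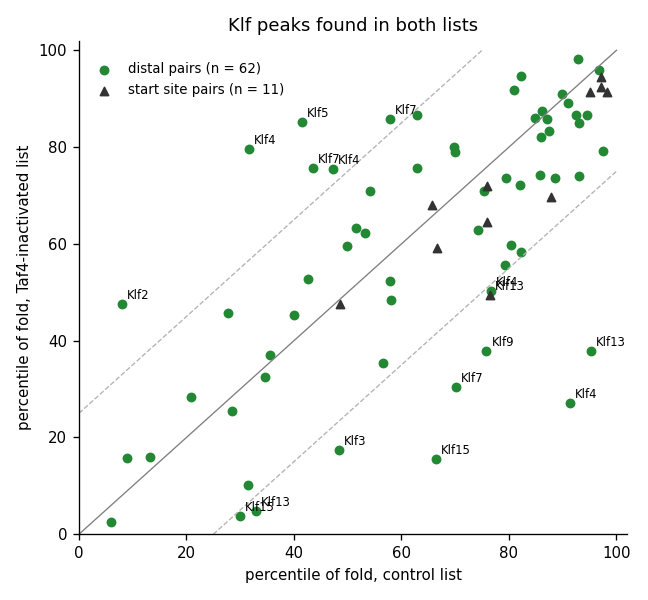
Percentile of fold in the control list (x axis) against the Taf4-inactivated list (y axis) for Klf peaks found in both, with 62 distal pairs as circles and 11 start site pairs as triangles. The solid line marks equal ranks and the dashed lines a difference of 25 points, and pairs beyond them carry the gene name. A distal Klf4 pair at 91.4 and 27.2 lies farthest below the line.

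The largest falls were near Klf4 and Klf13. A pair 118451 bp upstream of Klf4 (chr4:55663798-55664163 in control) fell from percentile 91.4 to 27.2, a difference of -64.2 points. A pair 47847 bp upstream of Klf13 (chr7:71131648-71132051) held the strongest distal control peak of that gene and fell from 95.2 to 37.8, or -57.4. In both the control peak lay inside a wider inactivated peak, of 1188 against 366 bp and 1057 against 404 bp, so that the fold of the wider peak is an average over more bases. Ranked by p the differences were -69 and -51.6. Upstream of Klf15 pairs fell from 66.4 to 15.5 and from 30 to 3.74, and the peaks of the latter shared 91 bp. Klf9 had its strongest distal control peak in an intron of Trpm3, which fell from 75.8 to 37.8. Klf7 (-39.9), Klf3 (-30.9), Klf13 (-28.3) and Klf4 (-26.5) each had a further pair past 25 points. Klf4, Klf7 and no other gene of the 10 thus held pairs past 25 points in both directions.

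Other strong distal peaks had a partner. The strongest distal peak of Klf10 in both lists was 1 region about 90689 bp upstream of its start (chr15:38321153-38321849 in control). It had a fold enrichment of 2.72 at percentile 92.8 in control and 4.74 at percentile 98.2 after inactivation. Upstream of Klf3 a group of peaks between 172331 and 179301 bp from the start reached percentiles 93, 97.5 and 96.8 in control and 74.1, 79.2 and 95.9 after inactivation. Klf3 also had the highest median percentile of distal peaks in control, 80.3, and 79.7 after inactivation, whereas Klf13, with the most peaks, stood at 29.8 and 30.3. The intronic Klf7 peak nearest to its start stood at 94.6 and 86.6. The strongest control peak downstream of Klf5 (chr14:99765499-99765824) stood at 85.8 and 74.3.

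The central 300 bases of the strongest distal peaks of Klf10 after inactivation and of Klf3 and Klf5 in control are shown as examples of strong regions found in both lists. That of Klf10 held a GC box and a CACCC box, and those of Klf3 and Klf5 none of the 6 motifs. Over all top 10% distal Klf peaks with a partner, the central window held AP-1 letters in 0 of 10 in control and 1 of 5 after inactivation. The whole peak held them in 4 of 10 and 2 of 5, and these counts were added with the values already known. Over all distal peaks with a partner, of any rank, the shares were 13.3% and 14.1% in central windows and 26.8% and 25.8% in whole peaks. Shares over all top 10% peaks were not computed. The windows shown are on the plus strand of mm9, with the searched letters in capitals.
Klf10 chr15:38321221-38321520: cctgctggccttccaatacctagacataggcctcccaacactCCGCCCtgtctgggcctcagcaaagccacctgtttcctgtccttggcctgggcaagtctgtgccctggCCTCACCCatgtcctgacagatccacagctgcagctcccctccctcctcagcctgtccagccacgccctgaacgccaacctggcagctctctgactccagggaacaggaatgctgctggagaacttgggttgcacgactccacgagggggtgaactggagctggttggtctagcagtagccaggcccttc
Klf3 chr5:65017506-65017805: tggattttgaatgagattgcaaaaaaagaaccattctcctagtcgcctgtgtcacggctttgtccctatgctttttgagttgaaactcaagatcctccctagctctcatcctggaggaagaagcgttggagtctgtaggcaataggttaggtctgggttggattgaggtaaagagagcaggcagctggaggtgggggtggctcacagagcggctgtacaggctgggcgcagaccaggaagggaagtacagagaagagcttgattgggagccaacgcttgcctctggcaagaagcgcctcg
Klf5 chr14:99765512-99765811: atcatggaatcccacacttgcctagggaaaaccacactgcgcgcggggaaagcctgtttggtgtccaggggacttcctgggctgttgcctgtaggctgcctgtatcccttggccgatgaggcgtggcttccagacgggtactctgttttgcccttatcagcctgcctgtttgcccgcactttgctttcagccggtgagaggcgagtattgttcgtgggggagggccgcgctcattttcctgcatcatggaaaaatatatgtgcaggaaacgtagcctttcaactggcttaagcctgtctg

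Sp factors recognise GC boxes and share the zinc fingers of the Klf family. Among 16 further Klf and Sp genes, 14 had their start sites open in both lists and Klf12 and Klf17 in neither. Klf8, singled out after its values were seen, stood at percentile 88.1 in control and 32 after inactivation, and no other of the 14 differed by as much. Sp7 also fell by over 25 points, from 32.2 to 4.53. Over all start site pairs of coding genes 10% fell by at least 25 points. Like the 10 genes described, none of the 16 had a start site peak after inactivation alone. Few of all coding genes did, since of the 14670 with such a peak after inactivation 14022 had it in both lists.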

How the data were processed

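Peak lists of 2 enteroid ATAC-seq libraries, 1 for each genotype, were grouped by the genotype in the labels. The authors mapped reads to mm9 with Bowtie 1.0.0, keeping reads with a single best position, and called broad peaks for each library with MACS2 2.1.1 after bcl2fastq 2.17.1.14. The deposited fold is enrichment over the background of the same library, so folds are not on a common scale. The deposited −log10 p and −log10 q are averages over a peak, with a minimum q of 1.01 (control) and 1 (inactivated) on that scale. The deposited score was not used. How duplicate and mitochondrial reads were treated is not given in the sources used here. Per the labels, growth used ethanol for control experiments, while the control sample is titled as tamoxifen-treated, as the study's methods describe it.

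Coordinates were made 1-based and set against the GENCODE M1 annotation of mm9. Distances ran from the nearest edge of a peak. A partner overlapped by at least 1 bp, and pairs were mutually best overlaps. A rank difference of at least 25 points was called. Depth was estimated, as a background level in reads, from the fold and Poisson p of the narrowest 10% of peaks. On simulated data the depth ratio was recovered within 2.01% in 3 pairs, and 0 of 300 peaks were assigned wrongly. The simulated p came from the formula that the estimate inverts, so the recovery checks the calculation and not the depth of these libraries. Intervals are exact (Clopper-Pearson). Values came from scipy 1.17.1, pandas 2.3.3 and numpy 2.4.6 under Python 3.11.15, and figures from matplotlib 3.10.9. Alternatives changed the q threshold, overlap, window, start site distance, distance measure and ranking value.

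The named peaks were those in the top 10% without a partner, pairs past 25 points and the strongest distal peak of each gene, and further peaks were named after their values were seen. The genes, gene lists, motifs and rules were chosen with earlier results of these data known. Read-level signal was not analysed here, and 1 marker gene is not reported here.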

Additional observations from a re-analysis of the deposited data

How the results depend on the processing

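No paired analysis was possible because each genotype had 1 library, and none could be left out either. Of 37 alternative values, 22 stayed within the limits used, 11 moved and 4 reversed.

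At a −log10 q of at least 5, 6 genes had a start site peak in control, in place of 10. Distal Klf peaks numbered 57 in control at a −log10 q of at least 2, and the difference, inactivated minus control, reversed from -15 to 26. At 5 or more there were 13 and 37 peaks, a difference of 24. By construction a threshold keeps fewer peaks, and the control list lost more of them.

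The share without a partner became 31.6% in control and 53% after inactivation at 2 in both lists, and the difference, control minus inactivated, reversed from 7.12 to -21.4 points. All distal peaks then gave 53.5% and 55.5%. With peaks at 5 or more, and partners of any strength, the shares were 0% of 13, which allows up to 24.7% by the exact interval, and 29.7% of 37, a difference of -29.7, against 2.45% and 20.3% for all distal peaks. Overlap of 50% of both peaks gave 70.5%, 66.4% and 4.14 points, against 77.9% and 71.1% for all distal peaks. The cause of the higher share after inactivation at stricter thresholds was not tested.

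Rank medians kept their sign, from -4.68 to -4.09 for start site pairs and from -6.62 to -1.52 for distal pairs. Weak peaks missing after inactivation cannot be read as closed, since the estimated background differed between the libraries and depth was not measured.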
